A study of Mus musculus with 6 samples.

Results

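Glycosaminoglycans are long sugar chains that hold water in the matrix of the intervertebral disc (IVD), and 10 genes of their synthesis and sulfation were followed here across all libraries. They were taken by gene symbol from a list covering sulfate uptake and activation, chain synthesis and sulfotransferases, by a rule that uses no measured level but was set with earlier results of these data known, and they are 10 of the 43472 symbols counted. All 10 passed the filter on low counts. RNA-seq was performed on poly(A) RNA of IVDs from T8 to L5 of C57B6/J mice at postnatal day 20, in 3 libraries from Col2Cre;Adgrg6 f/f mutants and 3 from controls. The genotype label of the controls is wild type, their sample titles call them Col2Cre controls, and the study describes Cre (-) littermates, so that their floxed alleles are not settled by these sources. Each library is a pool of discs from 2 to 3 mice, and p-values measure the spread between such pools. Col2Cre expresses Cre under the Col2a1 promoter, which is active in the cartilage lineage, while the RNA came from whole discs with every cell type in them. In bulk RNA of this kind, fewer cells of a type and less RNA per cell cannot be told apart.

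Chondroitin sulfate begins with xylose on a serine of a core protein such as aggrecan, continues through a short linkage and then grows by alternating N-acetylgalactosamine and glucuronic acid. Sulfotransferases in the Golgi place sulfate on carbon 4 or carbon 6 of N-acetylgalactosamine, using the activated sulfate donor PAPS, which PAPS synthases make from sulfate that the cell imports. The fixed negative charge of the sulfated chains draws water into cartilage and the nucleus pulposus, and defects in sulfate import, PAPS synthesis or the sulfotransferases cause skeletal dysplasias. Adgrg6, also named Gpr126, encodes an adhesion G protein-coupled receptor that raises cAMP in Schwann cells.

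Counts on genes were between 9061491 and 12017008 per library, and edgeR tested 16152 genes. The tissue carried the markers of cartilage and disc cells, with summed levels of 11 genes of 140260, 144739 and 86408 in controls and 147512, 119296 and 140318 in mutants, in CPM, the counts of a gene relative to the total of its library, scaled by TMM. Of these genes 2 had a fitted log2 fold change of mutant over control above 0, with a median of -0.29, and of 8 prehypertrophic and hypertrophic chondrocyte markers 2 did, with a median of -0.68 and sums of 2149 to 3289 CPM in controls and 1969 to 2339 CPM in mutants. All 7 tested markers of red blood cell precursors and all 9 of neutrophils and their precursors were above 0, each list with a median of 1.02. The red cell list summed to 39.6 to 343 CPM in controls and 213 to 450 CPM in mutants, and the neutrophil list to 16.2 to 60.7 CPM and 33.998 to 157 CPM. Of 6 tested markers of neurons and glia 4 were above 0, with a median of 1.31 and sums of 216 to 1644 CPM in controls and 901 to 3570 CPM in mutants. The part of these cell types in the differences below was not tested. Control replicate 1 stood apart in skeletal muscle markers, whose 8 genes summed to 4049 CPM there and to between 70.0 and 167 CPM in the other libraries. For this reason members whose call or sign changed without that library are given both ways. The targeted gene, listed as Gpr126, was at 124, 108 and 94.3 CPM in controls and at 138, 124 and 106 CPM in mutants, and its log2 fold change of mutant over control was 0.17 (SE 0.18, unadjusted p = 0.367 in edgeR). Counts were summed over the whole gene, so this level does not check a deletion of part of it.

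Of the 10 genes, Chst3, the chondroitin 6-O-sulfotransferase, was the one past an unadjusted p of 0.05, and it was higher in mutants. None passed the adjusted threshold, and for none did all mutant libraries lie outside the range of the controls. Over all genes tested, 2.89% were higher and 4.32% lower in mutants at an unadjusted p under 0.05, 0.00619% passed the adjusted threshold and 11.4% did not overlap between groups. The single gene past the adjusted threshold, named after its values were seen, was Prss50, a serine protease gene outside the pathway. The fitted log2 fold changes were above 0 for 5 members and below 0 for 5. Their median was -0.07, with quartiles of -0.21 and 0.27, against a median of -0.01 with quartiles of -0.26 and 0.20 over all genes tested. The set as a whole was therefore spread around no change about as widely as genes in general, and the description below goes gene by gene in the order of the pathway.

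**Figure D1:**
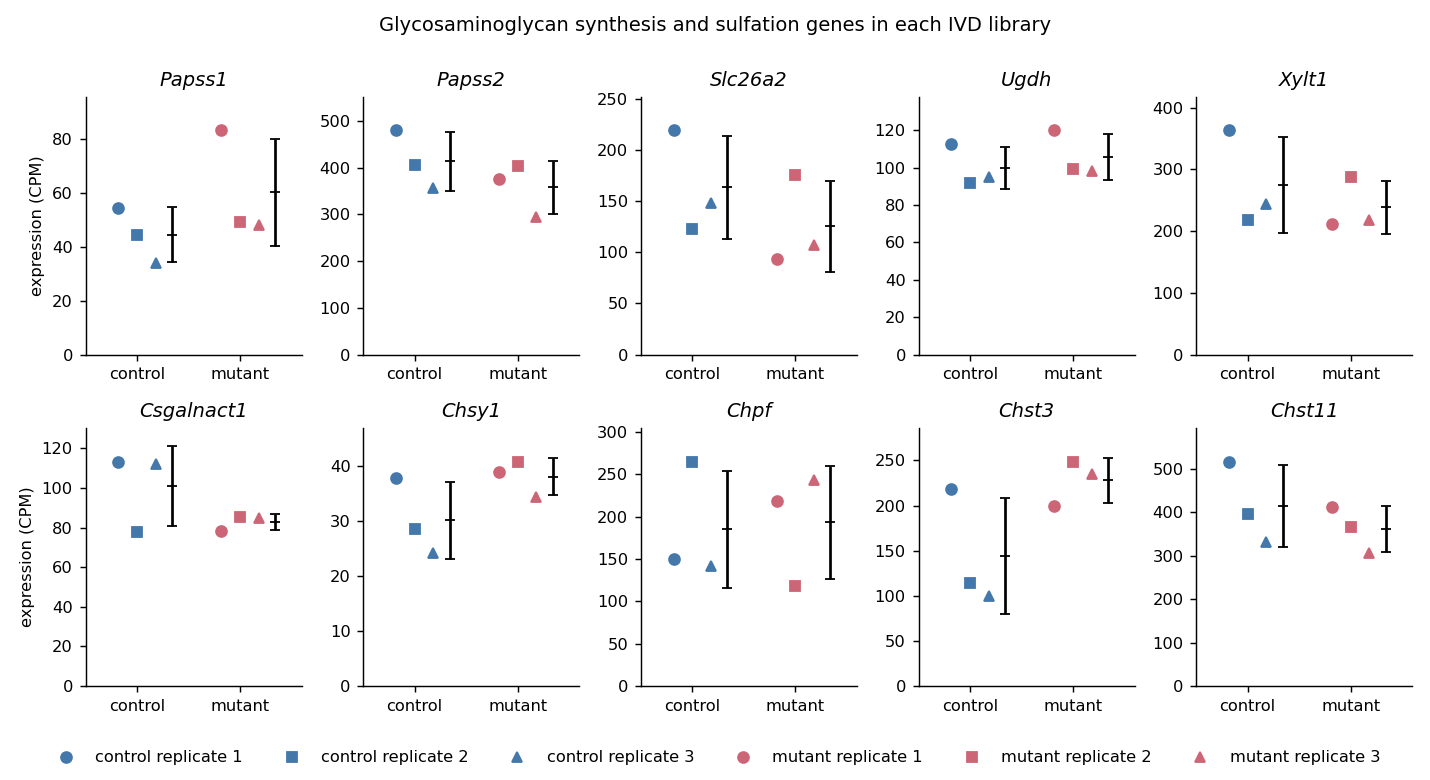
Expression in CPM (linear axes from 0) of the 10 genes in each library, with controls in blue, mutants in red and a separate symbol for each replicate number. Black bars give the mean and SD of 3 libraries. The groups overlap in every panel, and Chst3 has control replicates 2 and 3 at 114 and 99.7 CPM below the other 4 libraries.

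Levels of different genes were compared per length, as counts per kilobase of exon as a share of all such values in the library (TPM-like values, which sum to the same total in every library). In controls, Papss2 led at 317 ± 25.5 (SD, n = 3), a level above that of 97.9% of 15909 genes, followed by Chst11 at 214 ± 32.9 and Chpf at 138 ± 53.8. A middle group held Xylt1 at 80.9 ± 17.5, Chst3 at 62.5 ± 23.3 and Csgalnact1 at 57.0 ± 11.6. Ugdh at 42.3 ± 2.41, Papss1 at 41.5 ± 6.77 and Slc26a2 at 37.6 ± 9.12 came next, and Chsy1 was lowest at 20.6 ± 3.28, still above 66.6% of genes. The mean of Papss2 was 15.4 times that of Chsy1 on this scale. Control ranges of neighbours in this order were apart only between Papss2 and Chst11, Chpf and Xylt1, Csgalnact1 and Ugdh, and Slc26a2 and Chsy1. The ranges of the other neighbours overlapped. Within each control library Chst11 was still above Chpf and Xylt1 above Chst3, while the order of the remaining neighbours changed between libraries. Papss2 was above Papss1, the other PAPS synthase, and Chst11 was above Chst3, the other sulfotransferase, in every control library. Counts appear to include introns while the length is that of exons, so levels of genes with long introns, such as Chst11, may be set too high against those of short genes such as Chpf. With the length of the longest transcript, Slc26a2 moved from rank 9 to rank 7 and Chst3 and Csgalnact1 exchanged ranks 5 and 6.

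Slc26a2 encodes the sulfate and chloride exchanger that supplies chondrocytes with sulfate, and it lies at chr18:61192919-61211612 of GRCm38, as do all coordinates given here. It was counted at 219, 123 and 148 CPM in controls and at 93.3, 176 and 107 CPM in mutants. Mutant replicates 1 and 3 were below every control, while mutant replicate 2 was higher than controls 2 and 3, so the groups overlapped. Its log2 fold change was -0.38 (SE 0.29, 95% interval -1.02 to 0.25, unadjusted p = 0.209 and adjusted p = 0.793 in edgeR). Without mutant replicate 2 it was -0.69 (unadjusted p = 0.0296), and without control replicate 1 it was -0.09.

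Sulfate is turned into PAPS by Papss1 and Papss2, enzymes that carry both the sulfurylase and the kinase activity. Papss2 (chr19:32595790-32667187), the main form in cartilage, was at 480, 405 and 356 CPM in controls and 375, 404 and 294 CPM in mutants. Mutant replicate 3 was the lowest of all libraries and the other mutants lay among the controls. Its log2 fold change was -0.21 (SE 0.21, 95% interval -0.67 to 0.26, unadjusted p = 0.342 in edgeR), and it was -0.07 without control replicate 1 and -0.08 without mutant replicate 3. Papss1 (chr3:131564768-131643671), the broadly expressed form, was at 54.7, 44.5 and 34.2 CPM in controls and 83.4, 49.3 and 48.3 CPM in mutants. Mutant replicate 1 was above every other library, while mutants 2 and 3 were below control replicate 1. Its log2 fold change was 0.44 (SE 0.25, 95% interval -0.12 to 1.001, unadjusted p = 0.111 in edgeR), 0.64 without control replicate 1 (unadjusted p = 0.0385) and 0.17 without mutant replicate 1.

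The balance of both synthases was measured inside each library, where no scaling between libraries enters. The log2 ratio of Papss2 to Papss1 counts was 3.13, 3.18 and 3.38 in controls and 2.17, 3.04 and 2.61 in mutants. All 3 mutant libraries had the lower ratio, with mutant replicate 2 close to the controls. The means were 3.23 ± 0.13 and 2.60 ± 0.43 (SD, n = 3), a difference of -0.63 with an exact two-sided permutation p of 0.1, which is the smallest that 3 against 3 libraries can give. Adjusted over the 2 ratios computed, the exact p remained 0.1. In counts, Papss1 made up 10.2%, 9.91% and 8.78% of both genes in controls and 18.2%, 10.9% and 14.1% in mutants. Without mutant replicate 1 the difference was -0.41.

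Ugdh (chr5:65413221-65435949) encodes UDP-glucose dehydrogenase, which makes the UDP-glucuronic acid used for chain growth. It was the steadiest member, at 113, 91.8 and 94.8 CPM in controls and 119.9, 99.2 and 98.1 CPM in mutants. In both groups replicate 1 was highest and the ranges overlapped. Its log2 fold change was 0.08 (SE 0.17, 95% interval -0.31 to 0.47, unadjusted p = 0.645 in edgeR), and it lay between 0.02 and 0.20 with single libraries left out.

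Xylt1 (chr7:117380979-117673580) encodes the xylosyltransferase that starts the chain on the core protein. Its levels were 363, 218 and 243 CPM in controls and 211, 288 and 217 CPM in mutants. Control replicate 1 was highest and mutant replicate 2 second, with the other 4 libraries within 211 to 243 CPM. The log2 fold change of -0.20 (SE 0.24, 95% interval -0.73 to 0.32, unadjusted p = 0.413 in edgeR) turned to 0.07 without control replicate 1.

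Chain growth was covered by Csgalnact1, Chsy1 and Chpf. Csgalnact1 (chr8:68356781-68735146) adds the first N-acetylgalactosamine, the step that commits the linkage to chondroitin. It was at 113, 77.6 and 112 CPM in controls and at 78.1, 85.4 and 85.0 CPM in mutants. Controls 1 and 3 were above all mutants, and control 2 was the lowest library. The log2 fold change was -0.29 (SE 0.19, 95% interval -0.71 to 0.13, unadjusted p = 0.161 in edgeR) -0.45 without control replicate 2 (unadjusted p = 0.0408), -0.18 without control replicate 1 and -0.19 without control replicate 3 (unadjusted p = 0.413 and 0.392).

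Chsy1 (chr7:66109515-66173798), a chondroitin synthase that adds both sugars, was at 37.9, 28.5 and 24.2 CPM in controls and at 39.0, 40.8 and 34.3 CPM in mutants. Mutants 1 and 2 were above every control and mutant 3 was below control replicate 1 alone. Its log2 fold change was 0.34 (SE 0.20, 95% interval -0.10 to 0.77, unadjusted p = 0.117 in edgeR) 0.55 without control replicate 1 (unadjusted p = 0.0183) and 0.21 without control replicate 3 (unadjusted p = 0.341). The antisense transcript Gm26827 overlaps 148 exon bases of Chsy1 and had 1514 counts in all libraries against 2086 for Chsy1. Both lie on almost the same stretch of the genome on opposite strands and both have counts. If whole genes were counted, introns included, this needs reads to have been assigned by strand. The kit named for the libraries, NEBNext Ultra, is not named as its directional version. If it did not keep the strand, reads of both transcripts cannot be told apart.

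Chpf (chr1:75474569-75479307) encodes the chondroitin polymerizing factor, which works together with the chondroitin synthases. It was at 149.7, 265 and 141 CPM in controls and at 219, 118 and 244 CPM in mutants. Each group thus held both high and low libraries, with mutant replicate 2 lowest and control replicate 2 highest. The log2 fold change was 0.06 (SE 0.32, 95% interval -0.64 to 0.76, unadjusted p = 0.847 in edgeR). Leaving out control 1 gave -0.05, leaving out control 3 gave -0.10 and leaving out mutant 3 gave -0.14, while 0.40 was reached with control 2 left out.

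Levels of Chpf, Slc26a2 and Xylt1 split the libraries in a way that crossed the genotypes. Slc26a2 and Xylt1 ranked the 6 libraries in the same order, from control 1 through mutant 2, control 3, control 2 and mutant 3 to mutant 1. The 3 libraries lowest in these genes were the 3 highest in Chpf. The same libraries also differed in the levels of genes with high GC content. Over the 1580 genes with the highest GC content (57.9% to 84.2%), the median deviation of log2 CPM from the mean of all libraries was 0.09 in control 2, 0.14 in mutant 1 and 0.22 in mutant 3. It was -0.04 in control 1, -0.15 in control 3 and -0.24 in mutant 2. For these medians CPM was not scaled by TMM, 0.5 CPM was added, and the median deviation of each library was subtracted. The deviations of single members use CPM scaled by TMM without these steps. Transcript GC content was 58.0% for Chpf, 44.7% for Slc26a2 and 50.7% for Xylt1. Csgalnact1 (46.3%) was also lowest in control 2, mutant 1 and mutant 3. The other members did not split the libraries in this way. Ugdh, the member lowest in GC content at 42.9%, was highest in mutant 1. Chst3 (53.8%) and Chsy1 (53.2%), the next after Chpf in GC content, were highest in mutant 2. With these GC deviations entered as an offset, the log2 fold change of Chpf was -0.03 (unadjusted p = 0.902 in edgeR), that of Slc26a2 was -0.34 and that of Xylt1 was -0.22. Genes with a GC content like that of Slc26a2 (43.98% to 46.06%) deviated by medians of -0.08 to 0.10, and those like Xylt1 (49.80% to 51.68%) by -0.04 to 0.03, while Slc26a2 itself ranged from -0.57 to 0.67 and Xylt1 from -0.26 to 0.53. A median over many genes varies less than a single gene does, so these ranges are not on equal terms. The part of GC content in the pattern across libraries was not tested.

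**Figure D2:**
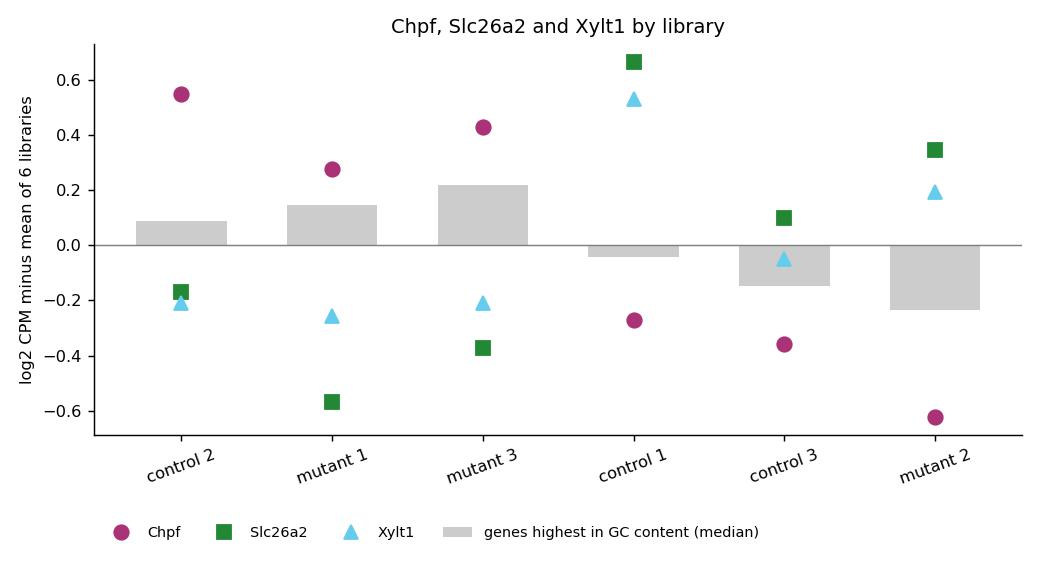
Deviation of log2 CPM from the mean of 6 libraries for Chpf, Slc26a2 and Xylt1 (symbols), and the median deviation of the 1580 genes highest in GC content (grey bars), by library. Symbols use CPM scaled by TMM. Bars use CPM without TMM, with the median deviation of each library subtracted. Chpf lies above 0 and the other genes below 0 in control 2, mutant 1 and mutant 3, where the bars reach 0.09 to 0.22.

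Sulfation of the chain was measured through Chst3, which sulfates carbon 6 of N-acetylgalactosamine, and Chst11, which sulfates carbon 4. Chst3 (chr10:60181532-60219260) was at 218, 114 and 99.7 CPM in controls and at 199.7, 248 and 235 CPM in mutants. Controls 2 and 3 were far below all mutants, whereas control 1 was higher than mutant 1, so the groups overlapped by 1 library. The means were 144 ± 64.5 CPM in controls and 228 ± 25.2 CPM in mutants (SD, n = 3). Chst3 was higher in mutants by a log2 fold change of 0.66 (SE 0.28, 95% interval 0.03 to 1.29, unadjusted p = 0.0414 and adjusted p = 0.686 in edgeR). This single call among 10 members stands against a background of 2.89% of genes called higher and 4.32% called lower, or 1164 of 16152 in either direction.

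The Chst3 difference depended on which libraries were included. Without control replicate 1 the log2 fold change was 1.11 (unadjusted p = 0.000256, adjusted p = 0.0586 in edgeR). Without control replicate 2 or 3 it was 0.52 and 0.47 (unadjusted p = 0.136 and 0.141), and without mutant replicate 2 or 3 it was 0.61 and 0.64 (unadjusted p = 0.0948 and 0.0931). The direction was the same under all 15 alternatives, the unadjusted p was under 0.05 in 10 of them and the adjusted p, between 0.0586 and 0.999, in none.

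Chst3 ranked the libraries in the same order as the summed markers of tendon and outer annulus. These 8 genes, among them the collagen I genes Col1a1 and Col1a2 and the tendon genes Tnmd, Scx and Mkx, summed to 25975, 18510 and 10625 CPM in controls and to 22936, 40965 and 36589 CPM in mutants. In both measures mutants 2 and 3 were highest, control 1 and mutant 1 came next, and controls 2 and 3 were lowest. Of the 8 markers 7 had a fitted fold change above 0, with a median of 0.67, and none of them was at 0 counts in a library. Without Col1a1 and Col1a2 the sums were 4032, 4219 and 2889 CPM in controls and 3775, 5331 and 5036 CPM in mutants, which no longer ranked the libraries as Chst3 does, and 5 of these 6 genes were above 0 with a median of 0.48. The osteoblast list summed to 4650 to 14082 CPM in controls and 12680 to 21107 CPM in mutants, most of it Col1a1, and without Col1a1 to 770 to 1221 CPM and 876 to 1144 CPM, with a median log2 fold change of 0.07. Within that list the osteocalcin genes Bglap and Bglap2 had log2 fold changes of 1.64 and 1.31 with all mutants above all controls, and Phex was at -0.81. Controls 2 and 3 were also the lowest libraries in the lists of red blood cell precursors, at 39.6 and 99.98 CPM, and of endothelium, at 91.5 and 118 CPM against 157 to 195 CPM elsewhere. The part of outer annulus, bone, blood or vessels in the Chst3 difference was not tested.

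**Figure D3:**
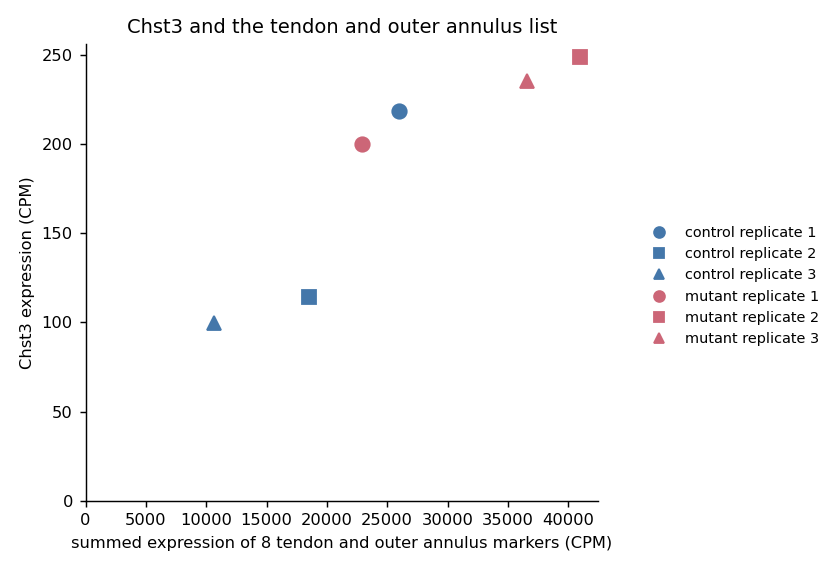
Chst3 expression (CPM) against the summed expression of 8 tendon and outer annulus markers (CPM) in each library, with controls in blue and mutants in red, both axes linear from 0. Controls 2 and 3 lie at the lower left, and control 1 at 25975 and 218 CPM lies beside mutant 1.

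Chst11 (chr10:82985498-83195900) was at 516, 397 and 332 CPM in controls and at 413, 366 and 306 CPM in mutants. Control 1 was highest and mutant 3 lowest, and the remaining 4 libraries were interleaved. The log2 fold change of -0.20 (SE 0.22, 95% interval -0.69 to 0.30, unadjusted p = 0.396 in edgeR) was 0.01 without control replicate 1.

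The log2 ratio of Chst11 to Chst3 counts within a library was 1.24, 1.79 and 1.73 in controls and 1.05, 0.56 and 0.38 in mutants. Every mutant library had a lower ratio than every control, and the smallest gap was between control 1 and mutant 1. The means were 1.59 ± 0.30 and 0.66 ± 0.35 (SD, n = 3), a difference of -0.93. The exact two-sided permutation p was 0.1, the smallest this design can give, and 0.1 after adjustment over the 2 ratios. As a share of the counts of both sulfotransferases, Chst3 made up 29.7%, 22.4% and 23.1% in controls and 32.6%, 40.4% and 43.5% in mutants. Leaving out single libraries gave a difference between -1.12 and -0.79. Part of this ratio is the Chst3 difference described above, so it is not separate support for it.

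**Figure D4:**
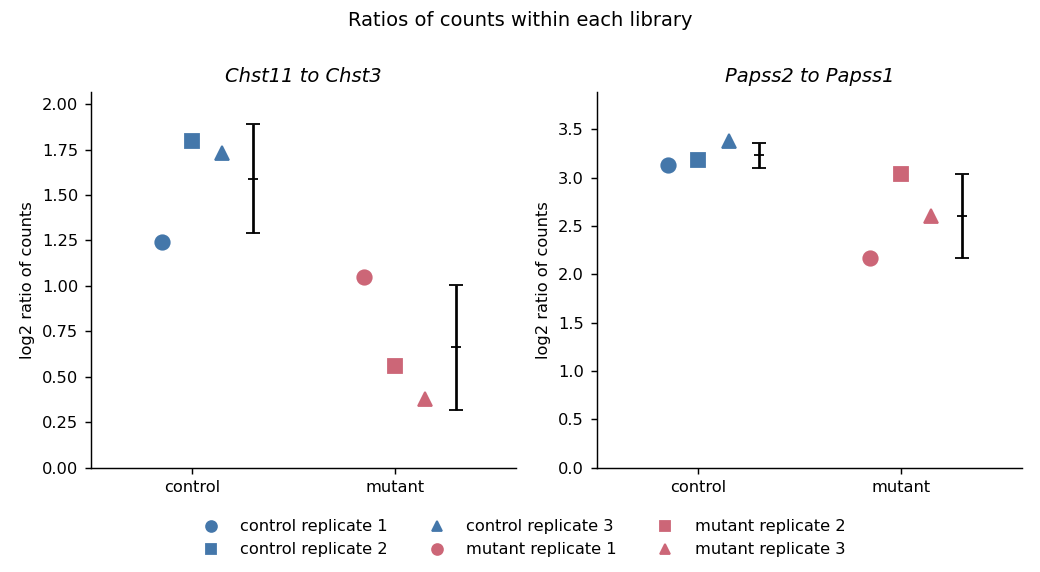
Log2 ratio of counts of Chst11 to Chst3 (left) and of Papss2 to Papss1 (right) in each library, with black bars for the mean and SD of 3 libraries and axes from 0. Both ratios are lower in all mutant libraries, with means of 0.66 against 1.59 and of 2.60 against 3.23.

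**Figure D5:**
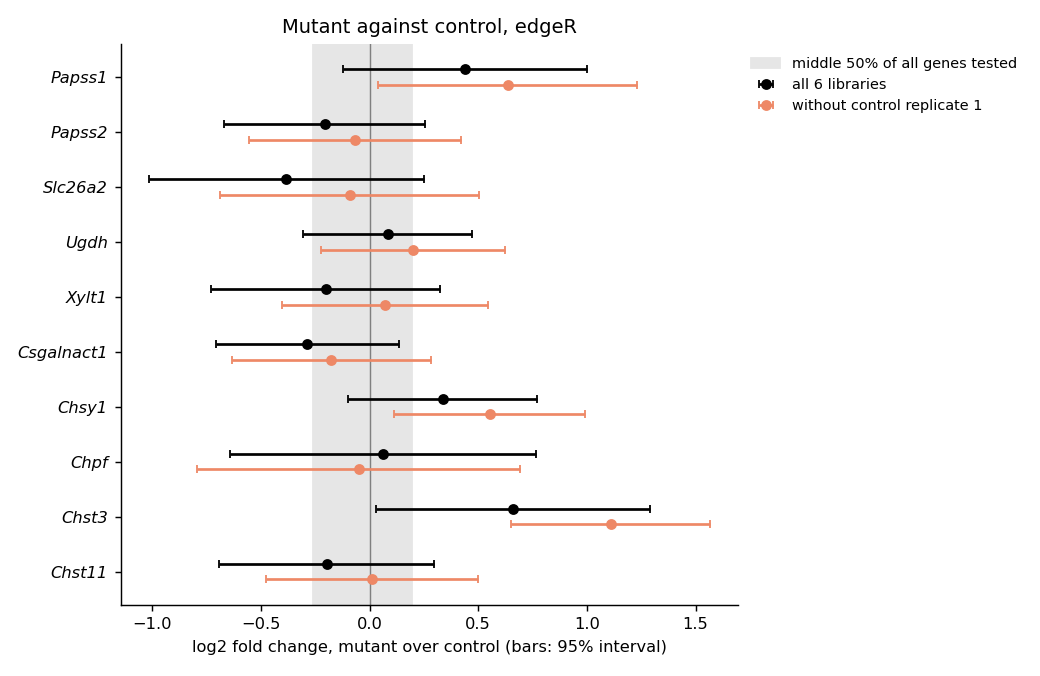
Log2 fold change of mutant over control with its 95% interval from edgeR for the 10 genes, over all libraries (black) and without control replicate 1 (orange). The grey band is the middle 50% of all genes tested, from -0.26 to 0.20. Only the interval of Chst3 is clear of 0 with all libraries, and those of Papss1 and Chsy1 also are without control replicate 1.

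The promoters of Chst3 and Chst11 are shown as those of both sulfotransferases, of which Chst3 passed the unadjusted threshold, and that of Chpf because it was the member with a full cAMP response element (CRE). RefSeq windows of GRCm38.p6, each of 250 bases before a start of transcription, were matched for 7 of the 10 genes, 9 windows in all. Windows for Slc26a2, Csgalnact1 and Xylt1 were not matched. The motifs searched on both strands were the CRE TGACGTCA, its core TGACG, which lies within it, the SOX core ACAAT and the STAT site TTCNNNGAA. Capitals mark the CRE matches in Chpf, and the windows of Chst3 and Chst11 hold no match to any of the 4 motifs.
Chst3, chr10:60219261-60219510, minus strand: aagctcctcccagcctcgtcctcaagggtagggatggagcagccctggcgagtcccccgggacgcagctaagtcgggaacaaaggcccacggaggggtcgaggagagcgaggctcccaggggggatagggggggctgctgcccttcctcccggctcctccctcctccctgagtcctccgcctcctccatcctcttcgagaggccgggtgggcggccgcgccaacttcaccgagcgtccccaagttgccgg
Chst11, chr10:82985247-82985496, plus strand: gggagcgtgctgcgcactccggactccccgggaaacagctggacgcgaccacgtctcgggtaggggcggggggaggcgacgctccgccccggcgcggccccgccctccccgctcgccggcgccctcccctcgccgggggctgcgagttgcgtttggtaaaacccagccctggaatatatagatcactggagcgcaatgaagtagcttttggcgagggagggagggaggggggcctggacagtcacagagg
Chpf, chr1:75479472-75479721, minus strand: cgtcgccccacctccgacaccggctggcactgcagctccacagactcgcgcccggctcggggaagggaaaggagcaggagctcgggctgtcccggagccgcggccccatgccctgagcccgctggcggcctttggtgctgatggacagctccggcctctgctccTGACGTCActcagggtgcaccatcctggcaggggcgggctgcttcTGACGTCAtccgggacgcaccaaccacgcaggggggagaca

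The CRE was present in 1 of the 9 windows, at positions -86 and -41 of Chpf, and in 1.546% of all 32851 windows of this length. Its core was found in 3 windows, those of Chpf, Chsy1 and Papss1, and in 17.77% of all windows. The SOX core was found in 2 windows, at the second starts of Papss1 and Papss2, and in 27.66% of all windows. The STAT site was found in none of the 9 windows and in 7.02% of all. A match is a description of the letters in the window and says nothing of binding.

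The other genes of glycosaminoglycan metabolism were followed through lists of sulfate supply, UDP-sugar supply, the linkage region, chain polymerization, sulfotransferases and epimerases, heparan sulfate, keratan sulfate and lysosomal degradation. Of 84 listed genes besides the members, 76 were tested, 39 with a log2 fold change above 0 and 37 below, with a median of 0.01. At an unadjusted p under 0.05 in edgeR 2 were higher and 4 lower, where the background was 2.89% and 4.32% of genes, and none passed the adjusted threshold.

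Among the lower genes were 2 transporters that bring substrates of chondroitin synthesis and sulfation into the secretory pathway. Slc35d1, which carries UDP-glucuronic acid and UDP-N-acetylgalactosamine into the endoplasmic reticulum, was at 85.8, 69.6 and 70.1 CPM in controls and 52.2, 54.4 and 39.0 CPM in mutants. All mutant libraries were below all controls, and the log2 fold change was -0.63 (SE 0.18, unadjusted p = 0.00645 and adjusted p = 0.676 in edgeR), with an unadjusted p between 0.00764 and 0.0352 when any one library was left out. Slc35b2, which carries PAPS into the Golgi, was at 128, 141 and 130 CPM in controls and 110, 93.8 and 99.0 CPM in mutants, again without overlap. Its log2 fold change was -0.40 (SE 0.16, unadjusted p = 0.0349 in edgeR), and the unadjusted p was between 0.0538 and 0.112 with any library left out, at -0.41 without control 1 and likewise without control 3.

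In the sulfate list of 6 tested genes besides the members, 3 had fitted fold changes above 0 and 3 below, and Slc35b2 was the 1 gene past an unadjusted p of 0.05. The next by p was Bpnt1, a phosphatase of the PAPS breakdown product, at 0.45 (unadjusted p = 0.109). Bpnt1 was at 0.78 without control replicate 1 (unadjusted p = 0.00821 in edgeR). Without control replicate 3 it was at 0.28 (unadjusted p = 0.303). Among 14 genes of UDP-sugar supply, 8 were fitted above 0 and 6 below, and Slc35d1 was the 1 past that threshold. Uap1, which makes UDP-N-acetylglucosamine, stood at 0.34 on the log2 scale (unadjusted p = 0.0604) with all mutant libraries above the controls. None of the 6 linkage genes passed, and 4 were fitted above 0 and 2 below, with a median of 0.05. Those with the smallest p were the 2 below 0, B4galt7 at -0.18 and B3gat3 at -0.13. None of the 3 polymerization genes passed, with Chsy3 at 0.36 and Chpf2 at -0.05. Without control replicate 1 Chsy3 was at 0.74 (unadjusted p = 0.0074 in edgeR). Chpf2 was at 0.07 without control replicate 1 and at -0.16 without control replicate 3. None of the 6 sulfotransferase and epimerase genes tested passed, with the 4-O-sulfotransferase Chst12 at -0.26 and the dermatan 4-O-sulfotransferase Chst14 at 0.25. Without control replicate 1 Chst14 was at 0.009.

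In the keratan sulfate list 4 of 5 genes were fitted above 0, with a median of 0.26, and Chst1, which sulfates galactose of keratan sulfate, was the 1 past an unadjusted p of 0.05. It was at 109, 115 and 82.8 CPM in controls and 197, 134 and 151 CPM in mutants, without overlap. Chst1 had a log2 fold change of 0.66 (SE 0.21, unadjusted p = 0.0107 in edgeR), with an unadjusted p between 0.00656 and 0.0422 with any library left out. Chst2, the N-acetylglucosamine 6-O-sulfotransferase, was at 0.55 on the log2 scale (unadjusted p = 0.0665).

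In the lysosomal list 8 of 15 genes were fitted above 0, and Sgsh, a sulfamidase of heparan sulfate breakdown, was the 1 past an unadjusted p of 0.05. It was at 8.56, 10.5 and 7.35 CPM in controls and 14.6, 12.6 and 19.1 CPM in mutants, without overlap, with a log2 fold change of 0.81 (SE 0.26, unadjusted p = 0.00998 in edgeR). The highest unadjusted p with a library left out was 0.0547. Naglu, an N-acetylglucosaminidase of the same breakdown path, was at 0.46 on the log2 scale (unadjusted p = 0.0567).

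Of 21 genes of heparan sulfate synthesis and editing, 14 were fitted below 0 and 7 above, with a median of -0.07. Those past an unadjusted p of 0.05 were Hs3st4 and Ndst3, at log2 fold changes of -2.59 and -1.52 (unadjusted p = 0.0201 and 0.0307 in edgeR). Both are sulfotransferase genes with low counts, and their levels in control replicate 3, at 7.50 and 7.58 CPM, were the highest of all libraries. Without that library neither passed, at -1.57 and -1.04 with an unadjusted p of 0.154 for each, and without control replicate 1 they were at -3.08 and -1.88 (unadjusted p = 0.00112 and 0.00368). Control replicate 3 also had the most counts on 1443 olfactory and vomeronasal receptor genes, at 0.127 counts per kilobase against 0.0108 to 0.0466 in the other libraries. With that density subtracted, Ndst3 was at -1.53 (unadjusted p = 0.0391 in edgeR), and Hs3st4 no longer passed the filter on low counts. The part of this density in the Hs3st4 and Ndst3 differences was not tested. For the 10 members, such a density over the whole gene would account for at most 3.34% of the counts, in Csgalnact1 in that library.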

How the data were processed

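The authors deposited raw counts per gene symbol for each of the 6 libraries, not normalized, in files that end with the summary lines of htseq-count. The submitters' processing notes name STAR 2.5.3a, HTSeq, DESeq2 and mm10 or GRCm38, whereas the study's methods describe Cutadapt, HISAT2, StringTie and Ballgown, so the mapper is not settled. Of 180 protein-coding genes inside an intron of a same-strand gene, 97.2% had no counts, against 21.7% of 428 inside an intron of an opposite-strand gene and 14.8% of all. The counts thus look assigned by strand over whole genes, introns included, while the kit is named as NEBNext Ultra, without the word directional. Of aligned reads 48.5% to 51.1% were on no gene. Lines that name no gene stayed out of library sizes. A deposited table of fold changes and p-values for selected genes was not used.

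Mutant and control libraries were compared in R 4.3.3 with edgeR 4.0.16 (TMM, filterByExpr with a count minimum of 10, quasi-likelihood test, Benjamini-Hochberg adjustment over all 16152 genes), checked on simulated data. The thresholds were an adjusted or unadjusted p under 0.05. The standard error is the size of the log2 fold change divided by the square root of F. Ratios were compared with exact permutation tests over libraries. All 10 members were named, and of each pathway list the genes with an unadjusted p under 0.05, or those with the smallest p until 2 were named. The members and lists were chosen with earlier results of these data known. Coordinates and exon lengths are those of GENCODE on GRCm38. Alternatives were RLE factors, library totals, no filter, DESeq2 1.42.0, limma-voom (limma 3.58.1), the replicate block, leaving out each library, and, chosen after seeing the data, a GC offset, subtraction of the density on silent genes, and GC with the block. Reads carry no molecular identifiers, so precision from depth covers counting error only.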

Additional observations from a re-analysis of the deposited data

How the results depend on the processing

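Of 150 values of the 10 genes under 15 alternatives each, 130 kept their direction and their side of an unadjusted p of 0.05 in edgeR, DESeq2 or limma-voom, and no member passed the adjusted threshold under any. Chst3 lost its call with library totals in place of TMM (0.58, unadjusted p = 0.0568), which moved the median of all genes to -0.13, and without control 2, control 3, mutant 2 or mutant 3. Ugdh turned to -0.036 with library totals. With a library left out Xylt1 lay between -0.35 and 0.072 and Chst11 between -0.33 and 0.011, each above 0 without control replicate 1 alone. Chpf was -0.054 with library totals, between -0.14 and 0.40 with a library left out, -0.032 with the GC offset and -0.012 with GC and the replicate block. The cause of these changes was not tested.

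Genes past the adjusted threshold numbered 1 in edgeR, 245 without a filter, 58 in DESeq2, 0 in limma-voom (1476 at an unadjusted p under 0.05), 0 with the replicate block (1002 unadjusted) and 0 to 31 with a library left out, 31 without control replicate 1. At an unadjusted p under 0.05 there were 1164 genes, 2276 without a filter and 618 to 2427 with a library left out, fewest without control 3 and most without control 1. Members past the unadjusted threshold numbered 1, and 2 without a filter, 0 with library totals, 2 with GC and the replicate block, and 0 to 3 with a library left out, 3 without control 1 and 0 without control 3 or mutant 3. The 1 member past it was Csgalnact1 without control 2 and Slc26a2 without mutant 2. Pathway genes past it numbered 6, and 12 in limma-voom, 10 with GC and the replicate block, and 2 to 13 with a library left out, fewest without mutant 3 and most without mutant 2. The median of the members was within -0.18 to 0.04, above 0 without control replicate 1 alone.

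Deviations of same-numbered libraries correlated at 0.16, -0.13 and 0.10, within the range of -0.26 to 0.18 for libraries with different numbers. No pairing by replicate number was thus seen, and whether same-numbered libraries shared a litter or batch was not tested. With the replicate block Chst3 was at 0.75 and no member changed its side of the threshold. Both ratios kept their sign under all 8 alternatives each, and the exact paired p was 0.25, the smallest for 3 pairs. Hs3st4 and Ndst3 rest on few reads.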
